A study of Homo sapiens with 6 samples.

Results

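Aminoacyl-tRNA synthetases are the enzymes that join each amino acid to its tRNA. The genes described here are 36 members of this family, taken by symbol from the deposited expression table, out of 60675 gene identifiers. They comprise 20 genes of cytosolic enzymes and 16 genes of mitochondrial enzymes, with symbols that end in 2. GARS and KARS each make both a cytosolic and a mitochondrial enzyme and are counted with the cytosolic genes. All 36 genes passed the expression filter, which left 13275 genes for testing.

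The libraries hold double-stranded RNA precipitated with the J2 antibody from OCI-AML2, an established human acute myeloid leukaemia line. In 3 libraries a short hairpin RNA lowered PNPT1, which encodes the mitochondrial exoribonuclease polynucleotide phosphorylase. In the other 3 the hairpin was directed at SUPV3L1 (SUV3), the mitochondrial RNA helicase that works with it. The design text calls the 3 libraries of a group biological replicates, but each library's title carries a number of its own whose meaning is not stated. The numbers may mark different hairpins, in which case the errors below would include differences between hairpins. Control cells and RNA before precipitation were not analysed here. Each comparison is therefore between the knockdowns, and a difference in expression cannot be told apart from a difference in precipitation. In bulk samples, fewer cells of a type and less RNA per cell cannot be told apart either.

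Assigned counts ranged from 5852090 to 11361371 per library, and PNPT1 knockdown replicate 3 had the fewest. That library also had the lowest scaling factor (0.669, by the trimmed mean of M-values, TMM), the fewest genes with a count (16620, where the highest number was 22393) and the most alignments that were not unique (80.1%, with 65.7% to 71.6% elsewhere). The composition of the libraries also differed between the groups. Mitochondrially encoded genes took 21.7%, 26.6% and 11.3% of counts with PNPT1 knocked down and 34.4%, 33.6% and 42.0% with SUPV3L1 knocked down, without overlap. Genes named after a few genomic clones took a mean of 25.2% and 12.1% of counts, and 37.7% in PNPT1 knockdown replicate 3. When the mitochondrially encoded and clone-named genes were left out of the fit, all 36 members kept the direction of their fold change. The part of these differences in the results below was not tested further. Levels in CPM are counts divided by the TMM-scaled library size. The targeted PNPT1 RNA had 7.66, 18.9 and 17.1 CPM with PNPT1 knocked down and 36.3, 27.6 and 21.4 CPM with SUPV3L1 knocked down, with no overlap, and SUPV3L1 RNA had 11.5, 18.2 and 25.8 CPM with PNPT1 knocked down and 12.2, 12.3 and 9.42 CPM with SUPV3L1 knocked down, with overlap. Neither passed the test. All 8 myeloid markers examined had counts in the 6 libraries. Their log2 fold changes (SUPV3L1 minus PNPT1 knockdown) went both ways, with 5 above and 3 below 0, and none passed the test. LYZ (lysozyme) had 36.6, 180.1 and 144 CPM with PNPT1 knocked down and 1493, 344 and 1331 CPM with SUPV3L1 knocked down, and LYZ, CD33 (0.59 ± 0.30 (SE)) and SPI1 (0.41 ± 0.28 (SE)) were higher in SUPV3L1 knockdown without overlap. Of all genes tested, 4.62% were higher in SUPV3L1 knockdown without overlap. PTPRC, AZU1 and CD44 were at -0.22 ± 0.42 (SE), -0.49 ± 0.50 (SE) and -0.24 ± 0.46 (SE). The part of these markers in the results was not tested. Of 12 markers of other cells, PECAM1, which monocytes also express, was the highest, and the other 11 were at 0.325 CPM or less, 7 of them with no count in any library.

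Cytosolic synthetases charge the tRNAs that feed the main ribosomes. Mitochondria use their own set of enzymes, encoded in the nucleus and imported, to charge the tRNAs that mitochondrial DNA encodes. By the fold of their catalytic domain the enzymes fall into class I and class II, and in human cells several cytosolic enzymes join scaffold proteins in the multisynthetase complex. Many cytosolic synthetase genes are induced by ATF4, a transcription factor that is made when amino acids run short or other stresses slow translation. Mitochondrial synthetase genes are not usually listed among its targets.

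ATF4 binds, with a C/EBP-family partner, a composite element whose core was searched here as TGATGNAA on both strands. RefSeq promoters (GRCh38.p14, 250 bases before to 50 after the start site) were found for 16 of the 20 cytosolic genes and 14 of the 16 mitochondrial genes. The core was present in 6 of the 16 cytosolic promoters (37.5%), in 1 of the 14 mitochondrial promoters, and in 3.67% of all 27305 promoters in the table. The 7 windows are shown because the levels of the same cytosolic genes across libraries are described further on. They read 5′ to 3′ on the strand of the gene, with the core or its reverse complement in capitals.
AARS (chr16:70289675-70289704, minus strand): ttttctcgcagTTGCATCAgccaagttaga
CARS (chr11:3057407-3057436, minus strand): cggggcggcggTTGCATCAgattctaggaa
IARS (chr9:92293692-92293721, minus strand): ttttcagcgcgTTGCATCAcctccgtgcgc
MARS (chr12:57488053-57488082, plus strand): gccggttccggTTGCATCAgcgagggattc
NARS (chr18:57621804-57621833, minus strand): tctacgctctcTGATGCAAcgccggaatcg
TARS (chr5:33440956-33440985, plus strand): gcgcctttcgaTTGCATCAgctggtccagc
YARS2 (chr12:32756076-32756105, minus strand): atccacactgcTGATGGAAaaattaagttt

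In each of the 6 cytosolic windows the open base of the core was C, a form (TGATGCAA) found in 0.923% of all promoters. Counted from the start site, the match began between -13 and 15 in 5 of them and at -187 in AARS. In YARS2 the core was of another form and began at -197. Of the other motifs searched on both strands, CCAAT was in 7 cytosolic and 9 mitochondrial promoters (35.7% of all promoters). The NRF1 motif was in 3 cytosolic and 3 mitochondrial promoters (6.28% of all), and the ETS motif CCGGAAGT in 4 cytosolic and 3 mitochondrial ones (4.44% of all). The promoters of HARS and HARS2 overlap and hold the same 2 copies of the ETS motif, so that stretch is counted in both sets. A match describes the letters and not binding.

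HARS and HARS2, the cytosolic and mitochondrial histidine enzymes, lie head to head on chromosome 5 and are read in opposite directions. The 84 bases between their RefSeq start sites, at 140691370 for HARS and 140691455 for HARS2, are shown because the levels of this pair are compared below. They hold 2 copies of the ETS motif, in capitals, each near 1 of the start sites.
HARS to HARS2 (chr5:140691371-140691454, plus strand): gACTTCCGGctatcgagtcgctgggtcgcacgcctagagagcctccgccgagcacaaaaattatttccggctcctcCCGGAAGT

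Levels were compared between genes on the deposited FPKM scale, which divides by gene length. Between genes too, a difference in expression cannot be told apart from a difference in precipitation. The cytosolic synthetase RNAs mostly had the higher FPKM. Their mean FPKM over 6 libraries ranged from 2.50 to 37.3 with a median of 11.4, and that of the mitochondrial genes from 0.697 to 27.3 with a median of 2.85. Of the cytosolic genes 10 exceeded a mean of 10 FPKM, and of the mitochondrial genes 1 did.

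EPRS, whose product charges both glutamate and proline tRNAs, was the highest of the family, with 42.3, 45.3 and 33.5 FPKM with PNPT1 knocked down and 35.1, 32.6 and 35.1 FPKM with SUPV3L1 knocked down. It lay above every other cytosolic gene in each library. QARS, the glutamine enzyme, followed with 30.1, 20.8 and 26.2 FPKM with PNPT1 knocked down and 22.8, 28.6 and 18.8 FPKM with SUPV3L1 knocked down. NARS, the asparagine enzyme, was the third with 16.2, 20.3 and 10.1 FPKM with PNPT1 knocked down and 19.2, 16.4 and 19.8 FPKM with SUPV3L1 knocked down. QARS exceeded NARS in 5 of 6 libraries. From NARS (a mean of 17.0 FPKM) to AARS (13.7 FPKM) 8 genes lay close together, and each exceeded the next in the order in 2 to 5 of 6 libraries, so their order was not settled.

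At the low end, MARS exceeded CARS in 6 of 6 libraries. CARS, the cysteine enzyme, had 3.21, 4.41 and 1.49 FPKM with PNPT1 knocked down and 2.78, 1.76 and 2.76 FPKM with SUPV3L1 knocked down. HARS had 2.44, 2.66 and 2.24 FPKM with PNPT1 knocked down and 2.81, 3.00 and 1.85 FPKM with SUPV3L1 knocked down. CARS exceeded HARS in 3 of 6 libraries, so these also had no settled order.

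IARS2, the mitochondrial isoleucine enzyme, stood apart from the rest of its set with 34.4, 25.9 and 21.0 FPKM with PNPT1 knocked down and 30.4, 25.3 and 26.5 FPKM with SUPV3L1 knocked down, and exceeded the next mitochondrial gene in 6 of 6 libraries. That next gene was RARS2, the arginine enzyme, with 8.96, 5.33 and 2.06 FPKM with PNPT1 knocked down and 5.81, 5.38 and 5.40 FPKM with SUPV3L1 knocked down, lowest in PNPT1 knockdown replicate 3. YARS2, the tyrosine enzyme, had 4.85, 4.79 and 3.87 FPKM with PNPT1 knocked down and 4.81, 5.57 and 4.32 FPKM with SUPV3L1 knocked down, the narrowest range of its set. RARS2 exceeded YARS2 in 4 of 6 libraries. VARS2, the valine enzyme, was low in all libraries, with 1.38, 1.90 and 1.13 FPKM with PNPT1 knocked down and 1.35, 1.30 and 1.68 FPKM with SUPV3L1 knocked down. PARS2, the proline enzyme, was the lowest of the family, with 0.558, 0.677 and 0 FPKM with PNPT1 knocked down and 1.08, 1.03 and 0.842 FPKM with SUPV3L1 knocked down.

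**Figure D1:**
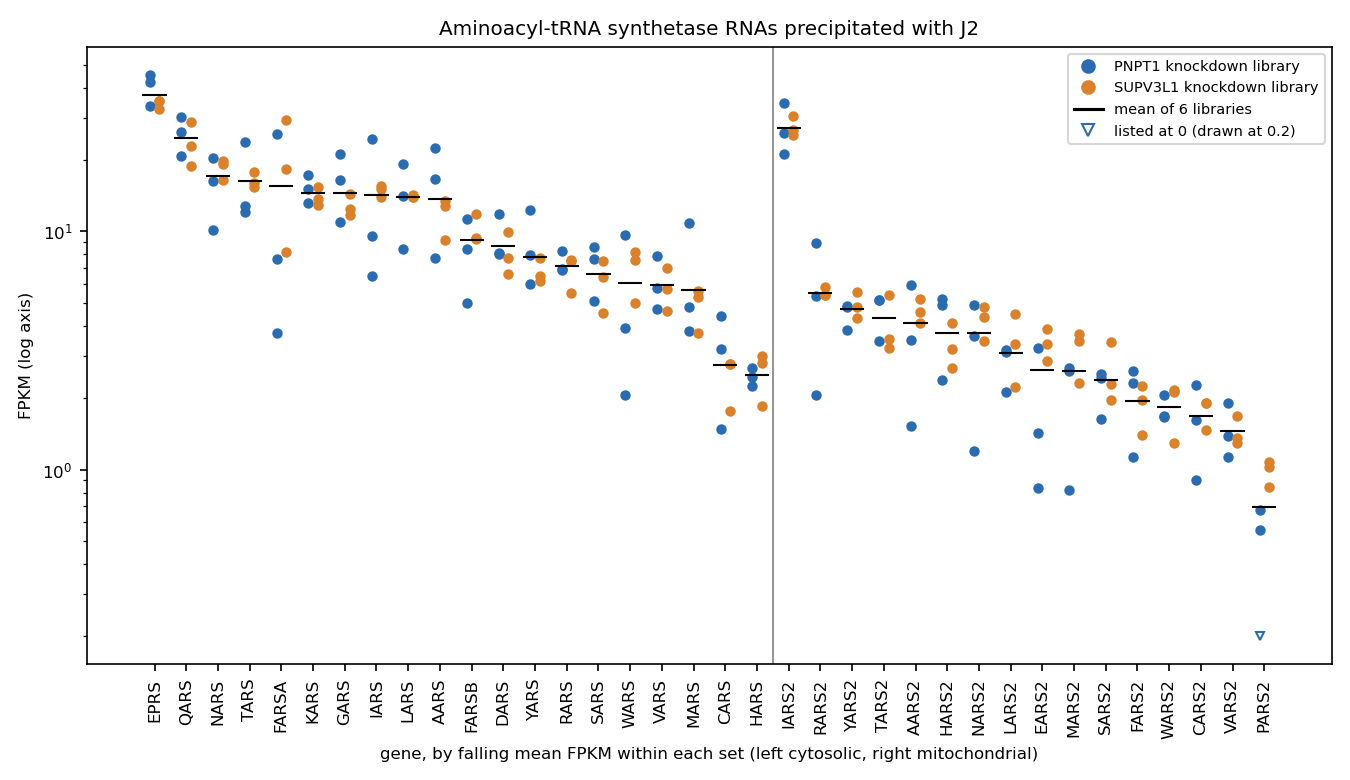
Level of each synthetase RNA in each library (FPKM, log axis), with genes ordered by mean within the cytosolic set (left) and the mitochondrial set (right). Points are libraries, black lines are means over the 6 libraries, and the open triangle marks PARS2 listed at 0. IARS2, with a mean of 27.3 FPKM, lies within the range of the highest cytosolic genes.

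Each mitochondrial gene was set beside the cytosolic gene for the same amino acid. This gave 17 pairs, with EPRS used for both glutamate and proline and FARS2 paired with each of FARSA and FARSB. The cytosolic RNA was the higher in all 6 libraries for 13 pairs. The ratio of means among these ran up to 53.5, for EPRS over PARS2. Isoleucine and histidine went the other way. IARS2 had a mean of 27.3 FPKM and IARS of 14.2 FPKM, with IARS2 higher in 6 of 6 libraries. HARS2 had a mean of 3.74 FPKM and HARS of 2.50 FPKM, with HARS2 higher in 4 of 6 libraries. CARS exceeded CARS2, and RARS exceeded RARS2, in 5 of 6 libraries, by ratios of means of 1.63 and 1.30.

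The histidine pair shares the stretch between start sites shown above. HARS2 had 4.90, 2.37 and 5.17 FPKM with PNPT1 knocked down and 4.12, 2.66 and 3.20 FPKM with SUPV3L1 knocked down, lowest in PNPT1 knockdown replicate 2. The FPKM ratio of HARS to HARS2 was 0.498, 1.12 and 0.433 in PNPT1 knockdown and 0.681, 1.13 and 0.577 in SUPV3L1 knockdown, so it exceeded 1 in a single library of each group and the groups overlapped. In GENCODE 29, 437 exon bases of each gene lie opposite exons of the other. No source used here states the strand setting of the counting, so reads from that stretch cannot be placed.

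Cytosolic phenylalanine tRNA is charged by an enzyme built from FARSA (alpha) and FARSB (beta) subunits, and the RNAs of these genes varied to different degrees. FARSA had 7.62, 25.6 and 3.75 FPKM with PNPT1 knocked down and 18.2, 29.2 and 8.18 FPKM with SUPV3L1 knocked down, the widest range of any cytosolic member (7.80-fold from lowest to highest). FARSB had 8.39, 11.3 and 4.998 FPKM with PNPT1 knocked down and 11.9, 9.27 and 9.38 FPKM with SUPV3L1 knocked down, a 2.37-fold range. The ratio of FARSA to FARSB ran from 0.749 in PNPT1 knockdown replicate 3 to 3.15 in SUPV3L1 knockdown replicate 2, and the groups overlapped.

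The knockdowns were then compared gene by gene. Log2 fold changes are SUPV3L1 minus PNPT1 knockdown, with 3 libraries per group, and come with their standard errors (SE) from edgeR. By the quasi-likelihood test, adjusted over all 13275 genes by the Benjamini-Hochberg method, none of the 36 members was called, where 0% of all genes (0 genes) were. At an unadjusted p under 0.05, 543 genes (4.09%) were found, 1.70% higher and 2.39% lower in SUPV3L1 knockdown, and again no member. DESeq2 called 18 of the same 13275 genes, and 19 of 28015 genes without the filter, none of them a member.

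The cytosolic genes had a median fold change (log2) of -0.28, and 15 of 20 were below 0, where 49.3% of all genes were. The mitochondrial genes had a median of 0.04, and 9 of 16 were above 0, where 50.7% of all genes were. Over all genes tested the median was 0.01. The cytosolic median depended on the PNPT1 knockdown libraries. Without replicate 3 it was -0.05 and 9 of 20 genes were above 0, instead of 5 with all libraries, and without replicate 1 it was -0.42. The mitochondrial median was 0.12 and -0.0554 without the same libraries. With library totals in place of TMM the cytosolic median was -0.11 and the mitochondrial 0.13. Without the mitochondrially encoded and clone-named genes in the fit, the cytosolic median was -0.283 and the mitochondrial 0.037. On log2(FPKM + 0.1) the cytosolic median was -0.11 with 8 of 20 genes above 0, the mitochondrial median was 0.21, and the median of all genes was 0.14. The difference between the sets was not tested.

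**Figure D2:**
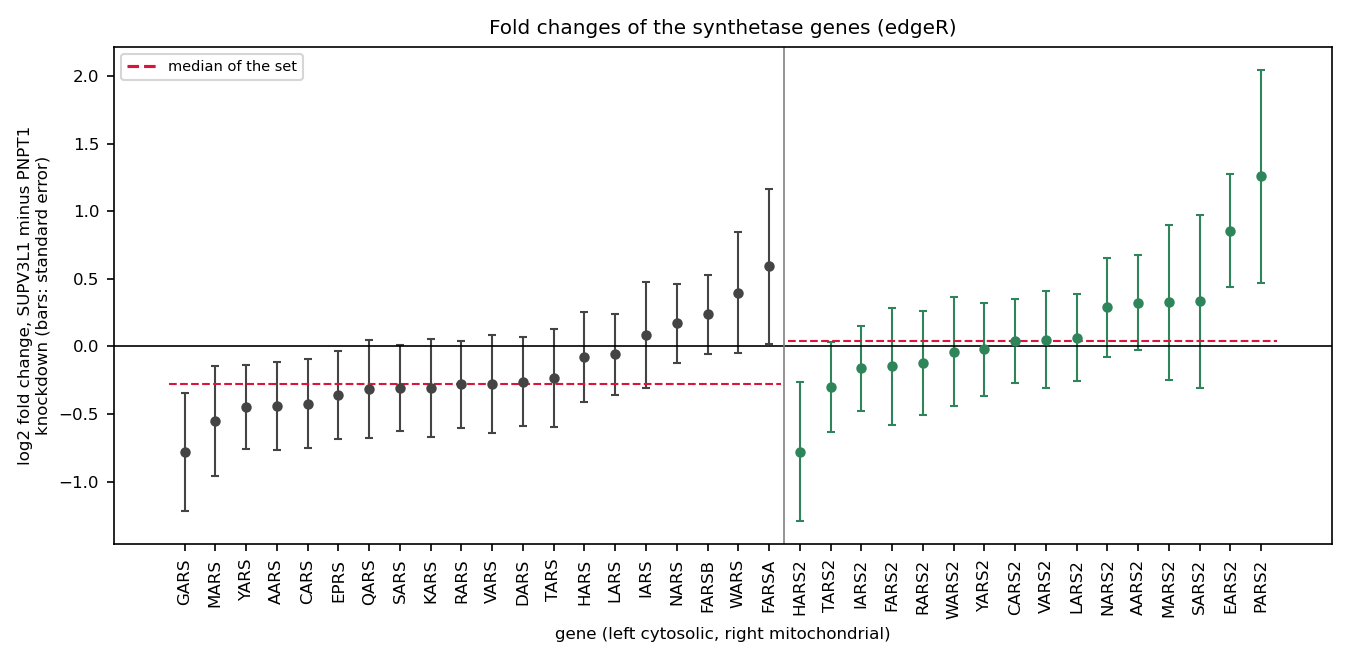
Log2 fold change of each synthetase gene, SUPV3L1 minus PNPT1 knockdown, from edgeR with its standard error, for cytosolic genes (left) and mitochondrial genes (right), each in rising order. Dashed red lines are the set medians, -0.28 and 0.04, and no gene passed the test.

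Among the cytosolic genes, GARS and MARS had the most negative fold changes. GARS, the glycine enzyme of both compartments, had 51.0, 105 and 194 CPM with PNPT1 knocked down and 75.1, 62.6 and 65.7 CPM with SUPV3L1 knocked down. Its highest and its lowest value were both in PNPT1 knockdown libraries, so the groups overlapped. The log2 fold change was -0.78 ± 0.44 (SE), and -0.20 without PNPT1 knockdown replicate 3. MARS, the methionine enzyme, had 30.4, 92.6 and 76.5 CPM with PNPT1 knocked down and 50.2, 49.9 and 36.2 CPM with SUPV3L1 knocked down. PNPT1 knockdown replicate 1 lay below all SUPV3L1 knockdown libraries and the other 2 above them. The log2 fold change was -0.55 ± 0.41 (SE), -0.23 without PNPT1 knockdown replicate 2 and -0.90 when replicate 1 of that group was left out. In GENCODE 29, 12.4% of MARS exon bases (chromosome 12, 57475445 to 57517569) are shared with ARHGAP9 and DDIT3 on the opposite strand.

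FARSA and WARS had the most positive fold changes of the cytosolic set. In CPM, FARSA had 20.8, 73.9 and 19.96 CPM with PNPT1 knocked down and 55.8, 91.6 and 26.4 CPM with SUPV3L1 knocked down, with the highest value in SUPV3L1 knockdown replicate 2. Its log2 fold change was 0.59 ± 0.58 (SE), and 0.0957 to 1.498 with any single library left out. WARS, the tryptophan enzyme, which interferon gamma also induces, had 30.2, 79.6 and 26.6 CPM with PNPT1 knocked down and 63.8, 42.1 and 74.7 CPM with SUPV3L1 knocked down. PNPT1 knockdown replicate 2 was the highest of the 6 libraries, and the log2 fold change was 0.40 ± 0.45 (SE) with it and 1.07 without it (edgeR, Benjamini-Hochberg adjusted p = 0.258). It was 0.13 and 0.17 without replicates 3 and 1 of the same group and 0.22 without SUPV3L1 knockdown replicate 3. In WARS, 10.6% of exon bases overlap genes on the opposite strand.

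KARS and QARS have links to both compartments, KARS as the lysine enzyme of both and QARS as the sole glutamine enzyme, since mitochondria make glutaminyl-tRNA by another route. KARS had 66.9, 65.0 and 143 CPM with PNPT1 knocked down and 80.6, 71.1 and 69.8 CPM with SUPV3L1 knocked down, with PNPT1 knockdown replicate 3 far above the rest. Its log2 fold change was -0.30 ± 0.36 (SE), and 0.16 without that library. QARS had 145, 111 and 246 CPM with PNPT1 knocked down and 128, 161 and 113 CPM with SUPV3L1 knocked down, again highest in PNPT1 knockdown replicate 3. Its log2 fold change was -0.31 ± 0.37 (SE), and 0.0613 without that library. On the FPKM scale, where that library is not raised by its TMM factor, KARS had 15.01, 13.2 and 17.2 FPKM with PNPT1 knocked down and 15.3, 13.6 and 12.9 FPKM with SUPV3L1 knocked down, the narrowest range among the cytosolic genes (1.33-fold).

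Of the other cytosolic genes, HARS stayed near 0, with 22.0, 25.7 and 34.5 CPM with PNPT1 knocked down and 28.1, 30.7 and 18.8 CPM with SUPV3L1 knocked down and a log2 fold change of -0.08 ± 0.33 (SE). Of the genes highest in FPKM, EPRS was at -0.36 ± 0.32 (SE) on the log2 scale and NARS at 0.17 ± 0.29 (SE). CARS, the next to lowest, was at -0.42 ± 0.33 (SE). The median standard error of a log2 fold change was 0.33 for the cytosolic and 0.37 for the mitochondrial genes.

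PARS2 was the single member whose groups did not overlap in CPM, where 8.56% of all genes tested did not overlap, 4.62% with SUPV3L1 knockdown higher and 3.94% lower. PARS2 (chromosome 1, 54756898 to 54764514, minus strand) had 1.39, 2.096 and 0 CPM with PNPT1 knocked down and 3.29, 3.21 and 2.71 CPM with SUPV3L1 knocked down. These values rest on 14, 24 and 0 counts and on 40, 34 and 25 counts. With no count in PNPT1 knockdown replicate 3, the PNPT1 knockdown libraries alone would not have carried PARS2 through the expression filter. Its lack of overlap is therefore no support for a difference. A count of 0 in PNPT1 knockdown replicate 3 allows up to 0.768 CPM (3 counts), for counting error only. The log2 fold change was 1.26 ± 0.79 (SE), and 0.80 to 1.86 when each library was left out (edgeR, Benjamini-Hochberg adjusted p = 0.898 with all libraries).

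EARS2, the mitochondrial glutamate enzyme, had the smallest p of the family. It had 9.06, 22.8 and 9.47 CPM with PNPT1 knocked down and 21.0, 28.95 and 25.6 CPM with SUPV3L1 knocked down. PNPT1 knockdown replicates 1 and 3 were low, while replicate 2 lay above the lowest SUPV3L1 knockdown value. The log2 fold change was 0.86 ± 0.42 (SE) (edgeR, unadjusted p = 0.0652, Benjamini-Hochberg adjusted p = 0.898). Without PNPT1 knockdown replicate 2 it was 1.43 (edgeR, adjusted p = 0.243), and it was 0.62 or more without any other single library.

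On the lower side of the mitochondrial set stood HARS2 and TARS2. HARS2 had 19.7, 9.26 and 45.6 CPM with PNPT1 knocked down and 17.0, 11.5 and 14.3 CPM with SUPV3L1 knocked down, with PNPT1 knockdown replicate 3 the highest. The log2 fold change of -0.78 ± 0.52 (SE) became -0.0288 without that library and -1.19 without PNPT1 knockdown replicate 2. TARS2, the threonine enzyme, had 24.9, 25.9 and 32.8 CPM with PNPT1 knocked down and 19.2, 18.2 and 30.3 CPM with SUPV3L1 knocked down, with overlapping groups and a log2 fold change of -0.30 ± 0.33 (SE). IARS2, the highest of the set in FPKM, had 162, 129 and 209 CPM with PNPT1 knocked down and 165, 135 and 147 CPM with SUPV3L1 knocked down and a log2 fold change of -0.16 ± 0.31 (SE). RARS2, YARS2 and VARS2 were at -0.12 ± 0.38 (SE), -0.02 ± 0.34 (SE) and 0.05 ± 0.36 (SE) on the same scale, each smaller than its error.

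By class, the cytosolic medians were -0.28 for 9 class I and -0.25 for 10 class II genes (EPRS belongs to both). In the mitochondrial set the medians were 0.04 for 9 class I and 0.29 for 7 class II genes, of which 4 were above 0. The 8 enzymes of the multisynthetase complex had a median of -0.29, with 7 of 8 below 0. The 12 other cytosolic genes had a median of -0.25, with 8 of 12 below 0.

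A further description concerns single libraries. The cytosolic genes were divided into 12 commonly listed as ATF4-induced (AARS, CARS, EPRS, GARS, IARS, LARS, MARS, NARS, SARS, TARS, WARS and YARS) and the 8 others. On the FPKM scale all 12 listed genes had their highest value in PNPT1 knockdown replicate 2. Of the 8 others 1 did (VARS), and of the 16 mitochondrial genes 5, where 17.0% of all genes tested did. In CPM, PNPT1 knockdown replicate 3 is raised by its TMM factor. On that scale 7 of the 12 listed genes and 0 of the 8 others were highest in PNPT1 knockdown replicate 2. Of all genes tested, 10.5% were highest there. Highest in PNPT1 knockdown replicate 3 were 4 of the listed genes and 6 of the others, where 30.6% of all genes tested were. This pattern was chosen for description after the values were seen and carries no test.

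Single members show its size. AARS, the alanine enzyme, had 16.5, 22.4 and 7.71 FPKM with PNPT1 knocked down and 12.7, 9.18 and 13.4 FPKM with SUPV3L1 knocked down. IARS had 9.53, 24.3 and 6.50 FPKM with PNPT1 knocked down and 15.1, 15.5 and 14.0 FPKM with SUPV3L1 knocked down. MARS had 3.81, 10.9 and 4.82 FPKM with PNPT1 knocked down and 5.61, 5.28 and 3.73 FPKM with SUPV3L1 knocked down, and its value in PNPT1 knockdown replicate 2 was 2.34 times the mean of the other 5 libraries. That factor ranged from 1.24 to 2.34 over the 12 listed genes, with a median of 1.70. It had a median of 1.02 over the 8 others, 1.04 over the mitochondrial genes and 1.11 over all genes tested.

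Among the 8 others FARSA had the largest factor, 1.91, though it was higher still in SUPV3L1 knockdown replicate 2. QARS, KARS, DARS and RARS, the 4 enzymes of the multisynthetase complex outside the list, were at 0.821, 0.891, 0.908 and 0.955 times the mean of the other libraries. EPRS, IARS, LARS and MARS, the complex's listed enzymes, were at 1.27, 2.00, 1.48 and 2.34 times that mean. In that library the RNAs of enzymes of 1 complex thus stood on different sides of their level elsewhere.

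**Figure D3:**
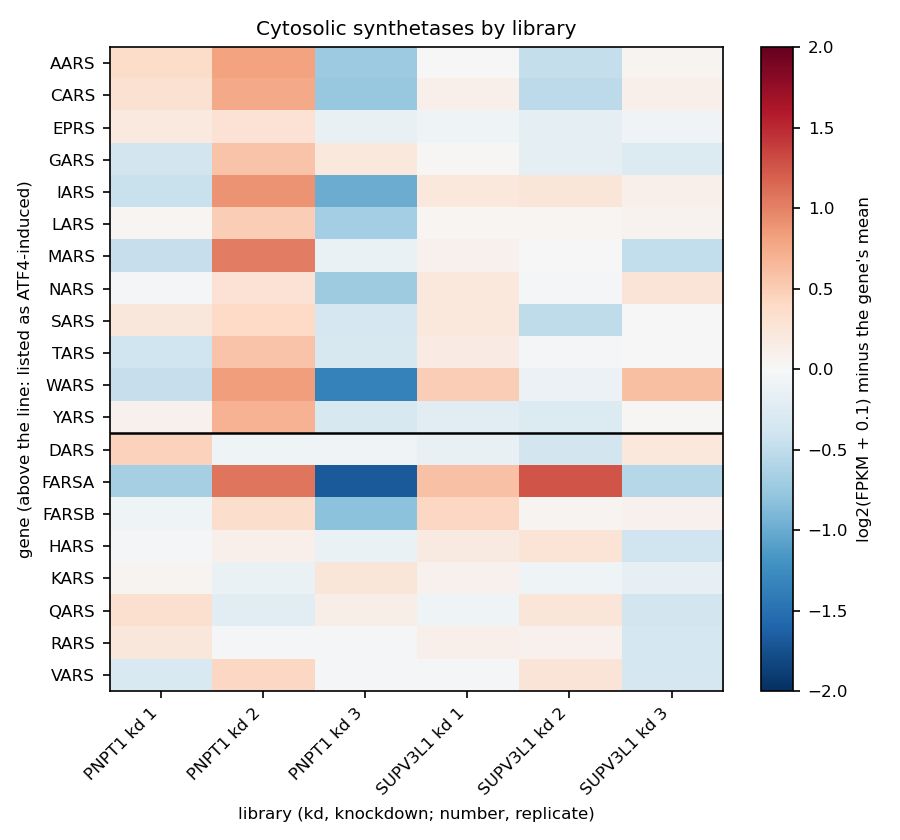
Level of each cytosolic synthetase RNA in each library as log2(FPKM + 0.1) minus the gene's own mean, red above and blue below. The 12 genes above the black line are those commonly listed as ATF4-induced, and each has its highest value in PNPT1 knockdown replicate 2.

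A ratio within a library does not depend on how libraries are scaled. The summed FPKM of the 12 listed genes over that of the 8 others was 1.67, 2.31 and 1.53 in PNPT1 knockdown and 1.72, 1.32 and 2.15 in SUPV3L1 knockdown. PNPT1 knockdown replicate 2 and SUPV3L1 knockdown replicate 3 had the highest ratios and SUPV3L1 knockdown replicate 2 the lowest, so the groups overlapped. With counts in place of FPKM the highest and the lowest ratio were in the same libraries (3.55 and 2.00). The difference of group means, SUPV3L1 minus PNPT1 knockdown, was -0.107. It was 0.128 without PNPT1 knockdown replicate 2 and 0.0988 without SUPV3L1 knockdown replicate 2. It was -0.261 and -0.318 without replicate 3 of PNPT1 and of SUPV3L1 knockdown, and -0.188 without PNPT1 knockdown replicate 1.

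The 6 cytosolic genes with the composite core in the promoter, shown above, are all among the 12 listed genes. Promoters were found for 10 of the 12, so the core was in 6 of 10, and in 0 of 6 found for the other cytosolic genes. Between the knockdowns these 6 genes had a median fold change (log2) of -0.33, from -0.55 for MARS to 0.17 for NARS, with 4 of 6 below 0. The 12 listed genes had a median of -0.33 and the 8 others -0.27. Without PNPT1 knockdown replicate 3 these medians were -0.20 and 0.0870.

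Other genes listed as ATF4-induced were examined after these values were seen. Of 9 such genes, 8 had their highest FPKM in PNPT1 knockdown replicate 2, where 17.0% of all genes tested did. In CPM 7 of the 9 were highest in that library, where 10.5% of all genes tested were. The other 2 were highest in CPM in PNPT1 knockdown replicate 3, where 30.6% of all genes tested were. The 9 were ASNS, PSAT1, PHGDH, TRIB3, CHAC1, DDIT3, SESN2, SLC7A11 and MTHFD2. ASNS, asparagine synthetase, had 2.68, 12.9 and 4.15 FPKM with PNPT1 knocked down and 6.01, 2.59 and 6.26 FPKM with SUPV3L1 knocked down. PSAT1, an enzyme of serine synthesis, had 5.06, 43.9 and 5.97 FPKM with PNPT1 knocked down and 15.4, 13.9 and 17.3 FPKM with SUPV3L1 knocked down. The exception in FPKM was DDIT3, a stress transcription factor, highest in PNPT1 knockdown replicate 3 at 28.0 FPKM. Its exons share 355 bases with MARS on the opposite strand. PHGDH, which opens serine synthesis, was also highest in PNPT1 knockdown replicate 2 but separated the groups, with 6.24, 9.81 and 7.14 FPKM with PNPT1 knocked down and 4.80, 4.01 and 4.76 FPKM with SUPV3L1 knocked down, a log2 fold change of -0.94 (edgeR, unadjusted p = 0.0212, Benjamini-Hochberg adjusted p = 0.898). It was the single one of the 9 with an unadjusted p under 0.05, where 4.09% of all genes tested had one, and none passed after adjustment. Groups that do not overlap were counted over all genes in CPM only, at 8.56%.

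The balance of mitochondrial to cytosolic synthetase RNA was compared by the same kind of ratio. Summed FPKM of the 16 mitochondrial genes over that of the 20 cytosolic genes was 0.343, 0.236 and 0.265 in PNPT1 knockdown and 0.319, 0.303 and 0.312 in SUPV3L1 knockdown. The means were 0.281 ± 0.0557 and 0.311 ± 0.00835 (SD, n = 3), a difference of 0.0300, which was smaller than the spread within PNPT1 knockdown. The lowest ratio was that of PNPT1 knockdown replicate 2, the library with the highest cytosolic sum (318 FPKM, with 190 to 250 FPKM in the others), and without it the difference of means was 0.00726. Without PNPT1 knockdown replicate 1, the highest, it was 0.0611.

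**Figure D4:**
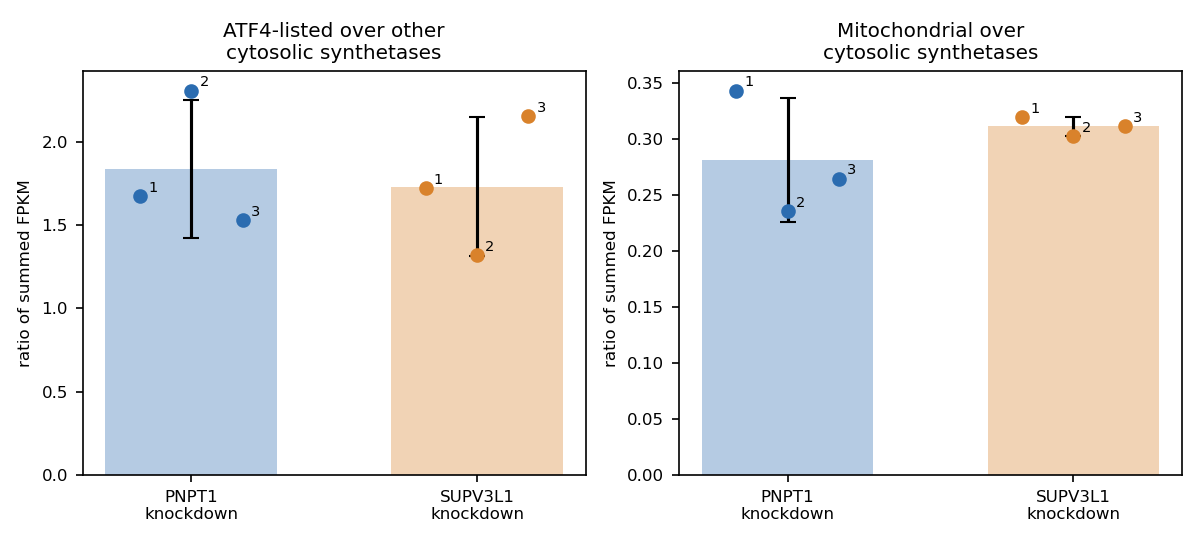
Ratios of summed FPKM within each library: the 12 ATF4-listed over the 8 other cytosolic genes (left) and the 16 mitochondrial over the 20 cytosolic genes (right). Numbered points are replicates, bars are group means and error bars are SD (n = 3), and the groups overlap in both panels.

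Other genes of the pathway were read in the same way, and none passed the test (edgeR, Benjamini-Hochberg adjusted p = 0.898 or more for each). The 3 scaffold genes of the multisynthetase complex had log2 fold changes of 0.01 to 0.68. Of these, AIMP2 had 5.27, 11.4 and 7.17 CPM with PNPT1 knocked down and 14.8, 14.1 and 9.42 CPM with SUPV3L1 knocked down, with overlapping groups, and EEF1E1 had a log2 fold change of 0.18 ± 0.49 (SE). The 4 genes that complete mitochondrial charging ranged from -0.05 to 0.29. They are QRSL1, GATB and GATC, which make glutaminyl-tRNA by amidation, with GATC at 0.27 ± 0.33 (SE), and MTFMT, which formylates the initiator tRNA, at 0.29 ± 0.43 (SE).

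Of 6 genes related to synthetases or to selenocysteine charging, 5 were below 0. SEPSECS, which completes selenocysteine on its tRNA, was at -0.70 ± 0.44 (SE), and PSTK, the kinase before it, at 0.82 ± 0.61 (SE). AARSD1 was the gene of this list without overlap, with 4.78, 4.10 and 4.61 CPM with PNPT1 knocked down and 2.30, 3.11 and 3.79 CPM with SUPV3L1 knocked down. Among all genes tested, 3.94% were lower in SUPV3L1 knockdown without overlap. The 9 mitochondrial translation factors lay between -0.30 and 0.15, with 4 above and 5 below 0. TUFM, the elongation factor that brings charged tRNA to the mitochondrial ribosome, was at -0.30 ± 0.41 (SE), and MTIF3, an initiation factor, at -0.27 ± 0.35 (SE).

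Cytosolic elongation factors take over the charged tRNAs or move them through the ribosome. With EEF1A2, 5 of 5 tested genes were below 0, where 49.3% of all genes tested were. EEF1A2, which delivers charged tRNA, had 2.99, 1.31 and 2.81 CPM with PNPT1 knocked down and 0.0822, 0.283 and 0.650 CPM with SUPV3L1 knocked down, from 30, 15 and 11 counts and from 1, 3 and 6 counts. It passed the expression filter through the PNPT1 knockdown libraries alone, so its log2 fold change of -2.80 ± 0.81 (SE) and its lack of overlap are no support for a difference. The 4 others were all below 0, with a median of -0.63, and of -0.13 without PNPT1 knockdown replicate 3. EEF1A1, EEF1B2, EEF1D and EEF2 each had their highest CPM in that library, where 30.6% of all genes tested had theirs. EEF1B2, a subunit of the exchange factor of EEF1A proteins, had 401, 345 and 881 CPM with PNPT1 knocked down and 393, 447 and 195 CPM with SUPV3L1 knocked down, overlapping between groups. EEF1G had no counts in the 6 libraries and a mean of 303 FPKM, so its counts carry no information.

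The synthetase genes themselves were checked for this kind of gap between counts and FPKM. Counts per FPKM and per kilobase of exon, set to 1 for the median member, lay between 0.810 and 1.33 for 34 of the 36 genes. SARS2, the mitochondrial serine enzyme (chromosome 19, 38915266 to 38930896, minus strand), was at 0.190. It had 19, 24 and 4 counts in PNPT1 knockdown and 16, 39 and 14 counts in SUPV3L1 knockdown at a mean of 2.37 FPKM, while MARS2, at 2.59 FPKM, had 27 to 153 counts. In GENCODE 29, 46.2% of SARS2 exon bases are shared with the gene AC011455.2 on the same strand and 10.8% with MRPS12 on the opposite strand. FARS2, the mitochondrial phenylalanine enzyme, was at 0.497 with no exon overlap in that annotation, and VARS2 was at 0.810 with 22.0% of its exon bases shared with GTF2H4. The log2 fold change of SARS2 in counts, 0.33 ± 0.64 (SE), therefore covers the reads that were assigned to it.

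**Figure D5:**
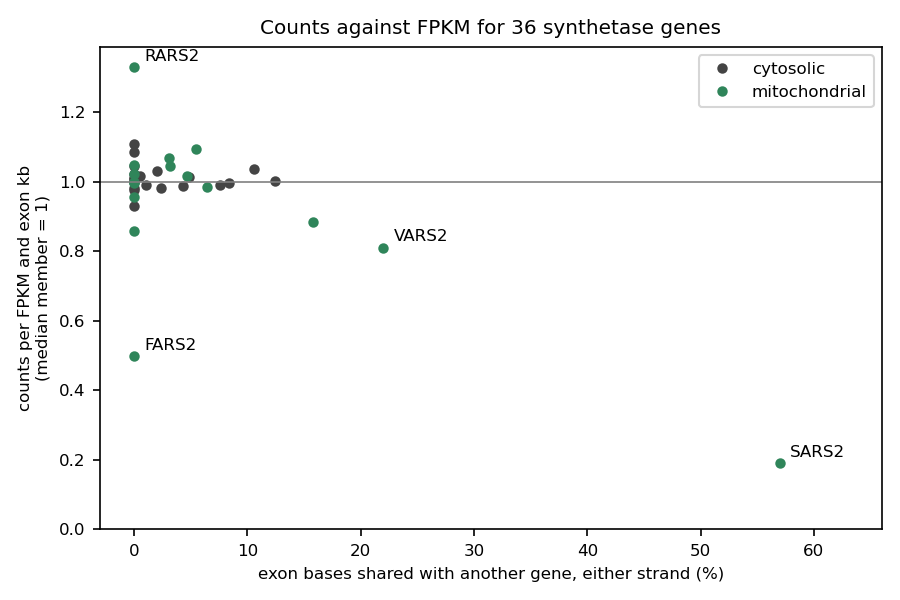
Counts per FPKM and per kilobase of exon for each synthetase gene (median member set to 1) against the share of its exon bases that another gene of GENCODE 29 also covers. SARS2, with the largest shared part, is at 0.190, and FARS2 is at 0.497 with none shared.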

How the data were processed

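HISAT2 2.2.1, SAMtools 1.14, StringTie 2.1.4, HTSeq and GRCh38 are named in the submitters' processing notes. No source used here gives the HTSeq version, its strand setting or the annotation release. The deposited count files hold raw counts per gene and end in 5 summary lines, which were left out. Between 7.06% and 16.0% of entries were assigned to genes. FPKM values, deposited by the authors in 1 table, are relative to gene length and depth, and the table's columns were matched by title.

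The main test was edgeR 4.0.16 (R 4.3.3, quasi-likelihood, TMM, minimum count 10, total 15), with Benjamini-Hochberg adjustment at 0.05. Each standard error was derived from the fold change and F statistic. The procedure was tested on simulated data. Alternatives used DESeq2 1.42.0, limma 3.58.1 on FPKM, other scalings and filters, and each library left out. P-values set the difference between groups against the spread between these libraries. The libraries were numbered in accession order.

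Members and lists were chosen with earlier results of these data known. Values in every library are given for members with the largest fold changes, the highest and lowest FPKM, no overlap between groups, or links to both compartments. Of each other list of charging or translation genes, the 2 genes with the smallest p are named. The myeloid markers, AARSD1, EEF1A1, EEF1D, EEF2, EEF1G and the examples AARS and IARS were named after their values were seen. So were ASNS, PSAT1, PHGDH, DDIT3 and the rest of the ATF4-listed genes named with them. Positions come from GENCODE 29 (GRCh38) and promoters from RefSeq (GRCh38.p14).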

Additional observations from a re-analysis of the deposited data

How the results depend on the processing

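No member passed an adjusted p of 0.05 in any of the 15 alternatives fitted for members (smallest 0.243, EARS2 without PNPT1 knockdown replicate 2), and 483 of 537 member fits kept the direction of the main fit. The count of genes called, 0 in the main fit, was 18 with DESeq2 on the same genes, 19 with DESeq2 without the filter, 187 with edgeR without an expression filter and 0 to 1 when each library was left out. The median of the mitochondrial genes was 0.21 on log2(FPKM + 0.1), with or without the filter, and -0.0554 to 0.12 when each library was left out, where the cytosolic median was -0.42 to -0.05. Unit and filter moved the median of all genes from 0.01 to 0.10 (DESeq2 without the filter), 0.11 (edgeR without it) and 0.14 (log2(FPKM + 0.1)). The members whose direction reversed had main log2 fold changes of at most 0.33 in size. With library totals alone HARS was at 0.0641, LARS at 0.0106, WARS2 at 0.0934 and YARS2 at 0.11. YARS2 was at 0.0015 with the filter of 50 counts and 0.00502 without a filter. On log2(FPKM + 0.1), with or without the filter, and on log2(FPKM + 1), HARS was at 0.0315 and 0.0287, LARS at 0.0982 and 0.0871, TARS at 0.089 and 0.081, IARS2 at 0.0399 and 0.0378, RARS2 at 0.25 and 0.18, VARS2 at -0.0042 and -0.0075, WARS2 at 0.0137 and 0.0158, and YARS2 at 0.12 and 0.0996. Leaving out each library in turn gave ranges of -0.22 to 0.11 for HARS, -0.18 to 0.63 for IARS, -0.51 to 0.16 for KARS, -0.17 to 0.0834 for LARS, -0.55 to 0.0613 for QARS, -0.53 to 0.0255 for TARS, -0.55 to 0.0138 for VARS, -0.12 to 0.21 for CARS2, -0.27 to 0.0102 for FARS2, -0.33 to 0.0253 for IARS2, -0.15 to 0.23 for LARS2, -0.14 to 0.94 for MARS2, -0.39 to 0.35 for RARS2, -0.29 to 0.59 for SARS2, -0.12 to 0.18 for VARS2, -0.19 to 0.16 for WARS2 and -0.14 to 0.17 for YARS2. The cause of these reversals was not tested. The filter of 50 counts left out FARS2, PARS2 and SARS2. No paired analysis was possible because the labels give the groups no shared replicate numbers. Few counts limit PARS2 and SARS2, and 3 libraries per group with unequal depth limit every fold change. The alternatives for DESeq2 on the filtered genes, the elongation factors, the ATF4-listed genes and for counts of members above 0 were chosen after seeing the data.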
